A study of Mus musculus with 6 samples.

Results

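Immediate early genes were examined in macrophages sorted from MC38 tumours, as the 10 genes Fos, Fosb, Jun, Junb, Egr1, Atf3, Ier2, Ier3, Dusp1 and Nr4a1 out of 21760 gene symbols in the table. They were chosen by symbol, and all 10 passed the filter on low counts, leaving 15560 genes tested. MC38 is a mouse colon carcinoma line, and its tumours had grown under the skin of C57BL6 mice for 16 days before RNA was taken from the sorted cells. The tumour cells were knocked out (KO) for Xkr8, which codes for a scramblase that exposes phosphatidylserine on dying cells, as clone 1 (2 mice) or clone 2 (2 mice), or were wild type (WT, 2 mice). The macrophages themselves came from the host, so the level of Xkr8 in these libraries does not check the knockout; no further treatment was given, and mice with tumours of the same clone share whatever else sets that clone apart. The age of the mice is not given in the sources used here.

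Immediate early genes are switched on within minutes of a stimulus without new protein synthesis, mostly through MAP kinases acting on serum response factor, its ternary complex partners and CREB, and their RNAs decay fast. In macrophages they respond to microbial products, cytokines and growth factors. Dissociation of tissue and cell sorting can induce them too, and the part of handling in the levels given here was not tested. The Fos and Jun proteins pair to form the transcription factor AP-1. The comparison asks how these genes differ in macrophages when the tumour cells around them lack Xkr8.

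The macrophage markers summed to 9121 to 10930 CPM in KO libraries and to 8588 and 10670 CPM in WT libraries, where CPM are counts per 1000000 reads of a library total scaled by the trimmed mean of M values (TMM). KO libraries held 37090034 to 40022755 estimated reads, and WT libraries 39173757 and 20038047. The ribosomal precursor Rn45s made up 2.06% to 7.12% of reads in KO libraries, and 1.46% and 24.6% in WT. TMM factors were 0.983 to 1.09 in KO libraries, and 1.16 and 0.726 in WT. The second WT library, WT mouse 2, thus differed from all others in depth, Rn45s share and scaling, and results are given with and without it. In these bulk samples, fewer cells of a type and less RNA per cell cannot be told apart.

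Together the 10 genes took 0.399% to 0.497% of all counts in KO libraries, against 0.360% in WT mouse 1 and 0.365% in WT mouse 2. In TMM-scaled CPM their sum was 3727 and 4276 in KO clone 1, 4161 and 4572 in KO clone 2, and 3095 and 5038 in WT. The KO libraries thus lay between the WT mice on this scale, but above both of them in CPM without a scaling factor, where the sum was 3993 to 4968 in KO libraries and 3598 and 3655 in WT. In CPM computed without Rn45s and with no scaling factor, it was 4092 to 5073 in KO libraries and 3651 and 4850 in WT. None of the 10 genes passed the test between KO and WT (edgeR's quasi-likelihood test with Benjamini-Hochberg adjustment over all genes, threshold 0.05). Over all genes 0.135% passed. At an unadjusted p under 0.05 there was 1 gene of the 10, Fosb, beside 13.6% of all genes, and DESeq2 also called none of the 10, where it called 3.21% of all genes. A p that misses the threshold does not show that the values were equal. The standard errors of the 10 log2 fold changes ran from 0.17 to 0.70.

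**Figure D1:**
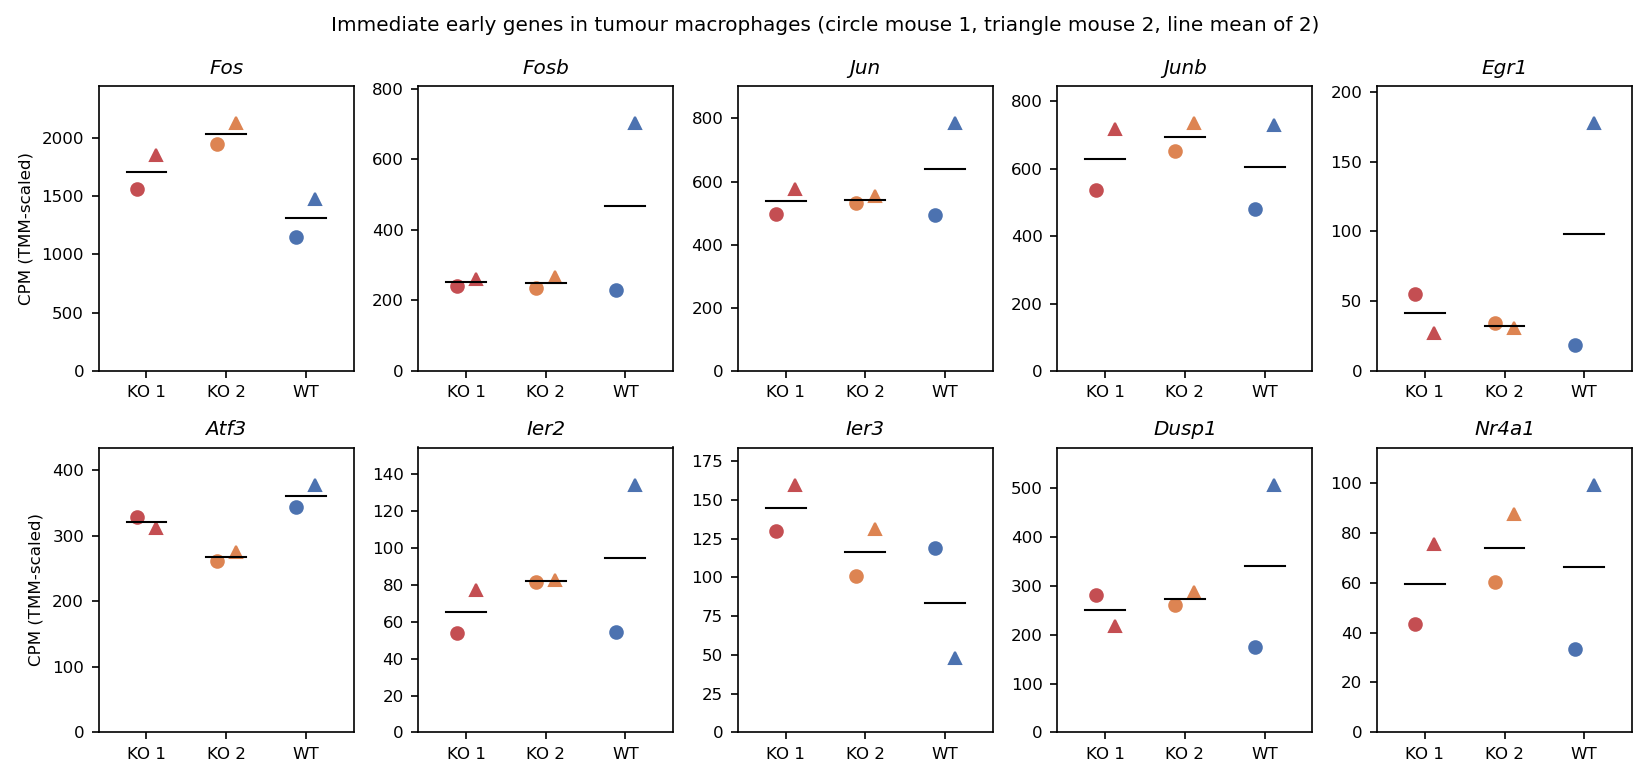
TMM-scaled CPM (vertical axis, from 0, a separate scale for each gene) of the 10 immediate early genes in KO clone 1, KO clone 2 and WT. Points are libraries, circles mouse 1 and triangles mouse 2, and lines are means of 2. WT mouse 2 is the highest library for 7 genes and the lowest for Ier3, while WT mouse 1 is the lowest for 7 genes.

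Fos (chr12:85473890-85477273, plus strand, GRCm38, as all gene positions here), which codes for the c-Fos subunit of AP-1, was the most abundant of the 10 and the only one with every KO library above both WT libraries on the TMM scale. It stood at 1560 and 1847 CPM in KO clone 1, at 1944 and 2123 CPM in KO clone 2, and at 1147 and 1476 CPM in WT. The groups do not overlap, and the lowest KO library, clone 1 mouse 1, lies close above WT mouse 2. Over all genes, 12.9% were higher in every KO library than in both WT libraries, so 1 gene of 10 is near the background. Fos averaged 1869 ± 235 CPM in KO (SD, n = 4 mice, with tumours of 2 clones) and 1312 ± 233 CPM in WT (SD, n = 2). Its log2 fold change came to 0.51 ± 0.22 (SE; adjusted p = 0.367 by edgeR). It was 0.68 ± 0.22 without WT mouse 2 (adjusted p = 0.4) and 0.35 ± 0.22 without WT mouse 1 (adjusted p = 0.236).

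Fosb (chr7:19302696-19310051, minus strand), a close relative of Fos, had nearly the same level in 5 libraries and a higher one in WT mouse 2. Its values were 240.9 and 260.9 CPM in KO clone 1, 233.7 and 266.5 CPM in KO clone 2, and 230.0 and 702 CPM in WT. The 4 KO libraries all lie just above WT mouse 1, and WT mouse 2 is at 3.05 times WT mouse 1. KO over WT came to -0.90 ± 0.37 on the log2 scale (SE; adjusted p = 0.36). Without WT mouse 2 it was 0.10 ± 0.15 (adjusted p = 0.928), so both the direction and the size of the value rest on that library. Without WT mouse 1 it was -1.47 ± 0.14 (adjusted p = 0.000943), where the lone WT library is assumed to vary like the KO libraries.

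Jun and Junb code for partners of the Fos proteins. Jun (chr4:95049034-95052222, minus strand), the c-Jun subunit, stood at 496 and 578 CPM in KO clone 1, at 531 and 553 CPM in KO clone 2, and at 494 and 785 CPM in WT. WT mouse 1 lies just below all KO libraries and WT mouse 2 above them. The log2 fold change was -0.24 ± 0.22 (adjusted p = 0.558), and 0.10 ± 0.16 without WT mouse 2. Exons of Junos lie over those of Jun on the opposite strand, and the use of strand in the counting is not given in the sources used here, so counts of Jun may hold reads of Junos. Junb (chr8:84974484-84978718, minus strand) stood at 538 and 719 CPM in KO clone 1, at 654 and 735 CPM in KO clone 2, and at 480 and 731 CPM in WT. Its KO and WT libraries overlap, and the log2 fold change was 0.13 ± 0.24 (adjusted p = 0.773), which was 0.44 ± 0.21 without WT mouse 2 (adjusted p = 0.672). In CPM without a scaling factor, Junb stood at 576 to 799 in KO libraries and at 558 and 530 in WT. Every KO library was thus above both WT libraries, as for Fos and for 8.73% of all genes. The totals on that scale include Rn45s, at 24.6% of reads in WT mouse 2 and 2.06% to 7.12% in KO libraries. A larger Rn45s share lowers the CPM of every other gene there, and its part in this placement was not tested.

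Atf3 (chr1:191170296-191218039, minus strand), a stress-induced factor of the wider AP-1 family that mostly represses inflammatory genes, was the only one of the 10 with every KO library below both WT libraries on the TMM scale. Its values were 329 and 313 CPM in KO clone 1, 261 and 275 CPM in KO clone 2, and 345 and 378 CPM in WT. Over all genes, 10.7% were lower in every KO library than in both WT libraries. The log2 fold change was -0.30 ± 0.17 (adjusted p = 0.434), and -0.25 ± 0.17 without WT mouse 2 (adjusted p = 0.797). In CPM without a scaling factor the groups overlap for Atf3, with 256 to 353 CPM in KO libraries and 401 and 274 CPM in WT. The 274 CPM belong to WT mouse 2, where Rn45s took 24.6% of the reads in the total, against 2.06% to 7.12% in KO libraries. The part of Rn45s in this overlap was not tested.

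**Figure D2:**
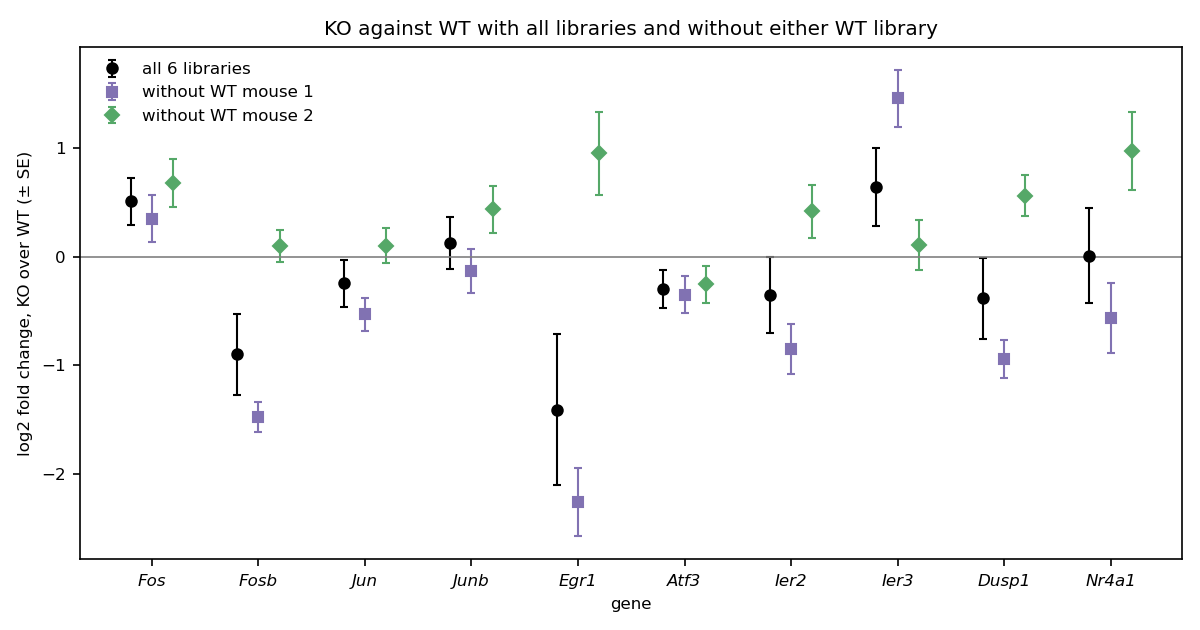
Log2 fold change of KO over WT (vertical axis, ± SE) for each of the 10 genes, with all 6 libraries, without WT mouse 1 and without WT mouse 2. Fos and Ier3 are positive and Atf3 negative in all 3 fits, while Fosb, Jun, Egr1, Ier2 and Dusp1 are negative with all libraries and positive without WT mouse 2.

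Egr1, a zinc finger factor induced through the serum response element, had the widest spread of the 10. It stood at 55.4 and 27.4 CPM in KO clone 1, at 34.1 and 30.5 CPM in KO clone 2, and at 18.7 and 178 CPM in WT. WT mouse 2 is at 9.51 times WT mouse 1, and all KO libraries lie between the WT mice. The log2 fold change was -1.41 ± 0.70 (adjusted p = 0.396) with all libraries and 0.96 ± 0.38 without WT mouse 2 (adjusted p = 0.535), so the direction rests on that library. Without WT mouse 1 it was -2.25 ± 0.31 (adjusted p = 0.00233). Nr4a1 (chr15:101254269-101274795, plus strand), an orphan nuclear receptor that restrains inflammatory gene expression in macrophages, had 43.4 and 75.3 CPM in KO clone 1, 60.1 and 87.5 CPM in KO clone 2, and 33.3 and 99.2 CPM in WT. The KO libraries again lie between the WT mice, and the log2 fold change was 0.01 ± 0.44 (adjusted p = 0.99), against 0.97 ± 0.36 without WT mouse 2 (adjusted p = 0.481).

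Dusp1 (chr17:26505590-26562128, minus strand) codes for a phosphatase that switches off p38 and JNK, and so ends the signal that induces it. It stood at 281 and 218 CPM in KO clone 1, at 261 and 286 CPM in KO clone 2, and at 174 and 507 CPM in WT. All KO libraries lie between the WT mice, and the log2 fold change was -0.38 ± 0.37 (adjusted p = 0.587), against 0.56 ± 0.19 without WT mouse 2 (adjusted p = 0.417).

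Ier2 and Ier3 are small early response genes outside the transcription factor families above. Ier2 (chr8:84661331-84662852, minus strand), which codes for a nuclear protein, had 53.8 and 77.3 CPM in KO clone 1, 81.3 and 82.8 CPM in KO clone 2, and 54.3 and 134 CPM in WT. Of the KO libraries, 3 lie above WT mouse 1 and none above WT mouse 2. Its log2 fold change was -0.35 ± 0.35 (adjusted p = 0.591), and 0.42 ± 0.25 without WT mouse 2. Ier3 (chr17:35821684-35822923, plus strand), a target of NF-kB that modulates cell survival, was the only one of the 10 with a lower TMM-scaled level in WT mouse 2 than in WT mouse 1. It stood at 129.6 and 159.8 CPM in KO clone 1, at 101.0 and 131.4 CPM in KO clone 2, and at 118.8 and 47.9 CPM in WT. WT mouse 2 is the lowest of the 6 libraries and WT mouse 1 lies within the KO range. The log2 fold change was 0.64 ± 0.36 (adjusted p = 0.42), which was 0.11 ± 0.23 without WT mouse 2 (adjusted p = 0.951).

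The promoters of Fos, Fosb, Ier3 and Dusp1 are shown because these genes stood on different sides of the KO libraries in WT mouse 2, where Fosb and Dusp1 were high, Ier3 was low and Fos was below the KO libraries. Each run is the 250 bases before the RefSeq start (GRCm38.p6), 5′ to 3′ on the gene's strand, at chr12:85473640-85473889 on the plus strand for Fos, chr7:19310046-19310295 on the minus strand for Fosb, chr17:35821463-35821712 on the plus strand for Ier3 and chr17:26508473-26508722 on the minus strand for Dusp1. Capitals mark matches, on either strand, to any of the motifs listed after the sequences.
Fos: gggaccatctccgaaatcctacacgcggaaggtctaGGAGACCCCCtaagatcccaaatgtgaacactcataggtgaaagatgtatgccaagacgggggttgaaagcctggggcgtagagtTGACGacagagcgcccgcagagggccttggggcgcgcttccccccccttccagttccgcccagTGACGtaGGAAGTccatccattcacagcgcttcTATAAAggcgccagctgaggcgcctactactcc
Fosb: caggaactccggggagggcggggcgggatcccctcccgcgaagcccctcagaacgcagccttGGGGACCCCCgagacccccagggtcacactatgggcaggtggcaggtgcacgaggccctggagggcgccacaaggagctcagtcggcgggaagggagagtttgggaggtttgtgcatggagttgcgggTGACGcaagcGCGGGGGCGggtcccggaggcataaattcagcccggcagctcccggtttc
Ier3: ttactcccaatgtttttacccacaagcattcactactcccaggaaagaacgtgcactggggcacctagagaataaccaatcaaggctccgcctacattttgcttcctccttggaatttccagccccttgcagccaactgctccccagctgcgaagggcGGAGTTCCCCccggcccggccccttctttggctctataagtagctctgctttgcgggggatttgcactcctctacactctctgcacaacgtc
Dusp1: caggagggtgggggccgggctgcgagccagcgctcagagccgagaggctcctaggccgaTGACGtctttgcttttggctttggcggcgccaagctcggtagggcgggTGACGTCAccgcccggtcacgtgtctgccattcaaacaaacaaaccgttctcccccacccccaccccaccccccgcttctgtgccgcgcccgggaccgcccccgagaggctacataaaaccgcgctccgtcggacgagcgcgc

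The motifs were searched on both strands in windows of 250 bases before to 50 after the start, in 32851 RefSeq promoters and in those of 8 of the 10 genes. Egr1 and Ier2 are named only. The core TGACG of the cyclic AMP response element (CRE) was in 6 of the 8 (Fos, Fosb, Junb, Atf3, Dusp1 and Nr4a1), beside 20.8% of all promoters. The full CRE TGACGTCA, which holds that core on each strand, was in Dusp1 alone of the 8, beside 1.79% of all. An NF-kB site was in 4 (Fos, Fosb, Ier3 and Nr4a1), beside 4.51% of all, and the EGR site GCGNGGGCG in 2 (Fosb and Nr4a1), beside 5.55%. The ETS core GGAAGT was in 2 (Fos and Junb), beside 23.8%, and so was the TATA box TATAAA, beside 13.6%. The CArG box, to which serum response factor binds, and the AP-1 site TGANTCA were in none of the 8 windows, beside 1.63% and 7.81% of all. A match describes the letters in this window, and no match says only that those letters are not there. The NF-kB site was present both in Ier3, for which WT mouse 2 was the lowest library, and in Fosb, for which it was the highest. No link between a motif and the level of a gene was tested.

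The genes also differed in how far the 2 mice of a group stood apart. On the TMM scale, 9 of the 10 genes were higher in mouse 2 in WT, with a median log2 difference (mouse 2 minus mouse 1) of 0.99, while 48.1% of all genes were higher there, with a median of -0.05. The absolute difference had a median of 1.31 for the 10 genes and 0.63 for all genes. It was above 1 on the log2 scale for 6 of the 10, against 29.9% of all genes. The KO pairs stood closer, with a median absolute difference of 0.33 for the 10 genes and 0.28 for all genes in clone 1, and of 0.15 and 0.11 in clone 2. Fosb, Jun, Egr1, Dusp1 and Nr4a1 were highest in WT mouse 2 and lowest in WT mouse 1, a placement that 6.66% of all genes had. WT mouse 2 was the highest library for 7 of the 10 (35.1% of all genes) and the lowest for Ier3 (38.7%), and WT mouse 1 was the lowest for 7 (13.3%). Every KO library lay above WT mouse 1 for 7 genes (23.5% of all genes) and below it for Atf3 (21.3%). Every KO library lay below WT mouse 2 for 7 genes (37.2%) and above it for Fos and Ier3 (41.4%). In CPM without a scaling factor, 5 of the 10 were higher in WT mouse 2 than in WT mouse 1 (Fosb, Egr1, Ier2, Dusp1 and Nr4a1), beside 20.8% of all genes. On that scale every KO library lay above WT mouse 1 for 5 genes (11.3% of all genes) and below WT mouse 2 for 4 (16.3%). Per gene on the TMM scale, Egr1 had the widest difference in WT at 3.25, and Atf3 the narrowest at 0.13.

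**Figure D3:**
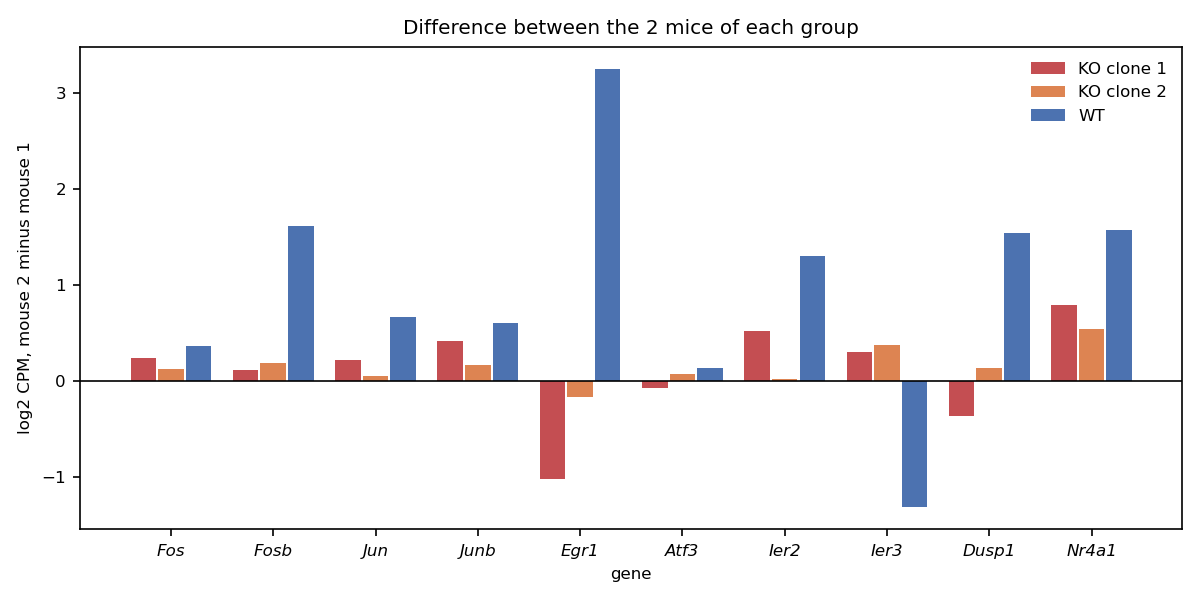
Log2 CPM of mouse 2 minus mouse 1 (vertical axis) within KO clone 1, KO clone 2 and WT for each of the 10 genes. The WT bar is the longest of the 3 for each of the 10 genes, with Egr1 at 3.25 and Ier3 at -1.31, and every bar of Fos, Jun, Junb and Atf3 is shorter than 1.

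Markers of other cells also differed, between KO and both WT libraries as well as in WT mouse 2. The T and NK, monocyte, neutrophil, endothelial, dendritic and B cell sums were higher in every KO library than in both WT libraries. The fibroblast and epithelial or tumour sums were lower in every KO library, and highest in WT mouse 2. Of single genes tested, 12.9% were higher and 10.7% lower in every KO library than in both WT libraries. The 6 fibroblast markers summed to 2356 to 3871 CPM in KO libraries, 4084 CPM in WT mouse 1 and 11930 CPM in WT mouse 2. Col3a1, a fibrillar collagen, gave most of that sum, at 1837 to 3215 CPM in KO libraries and 3634 and 11320 CPM in WT, and Col1a1 stood at 12.2 to 70.2 against 24.9 and 291 CPM. Dcn stood at 286 to 470 CPM in KO libraries and 255 and 127 CPM in WT, Col1a2 at 19.6 to 79.3 against 25.02 and 23.9 CPM, Pdgfra at 78.6 to 151.9 against 143.7 and 167.7 CPM, and Lum at 1.22 to 5.57 against 1.999 and 1.31 CPM, so the list did not move as one. Of the epithelial or tumour list, 4 of 5 markers were in the table and summed to 11.1 to 12.8 CPM in KO libraries and 15.6 and 44.1 CPM in WT. The T and NK list (8 of 9) summed to 70.9 to 114 CPM in KO libraries and 16.1 and 23.5 CPM in WT, the monocyte list (5 of 5) to 706 to 1107 against 579 and 221 CPM. Neutrophil markers (6 of 6) summed to 46.1 to 64.0 against 26.7 and 26.0 CPM, endothelial (5 of 5) to 46.6 to 60.2 against 21.5 and 26.1 CPM, dendritic (5 of 5) to 21.3 to 36.2 against 15.3 and 14.1 CPM, and B cell markers (4 of 4) to 8.44 to 13.6 against 5.89 and 3.92 CPM. Counts of 0 in WT mouse 2 were found for the defining neutrophil markers Ly6g, S100a9, Retnlg and Mpo and for the markers Ncr1, Cd79a, Emcn and Krt18. That library held 20038047 reads, against at least 37090034 in the others, and the part of depth in these counts of 0 was not tested. Its neutrophil sum was close to that of WT mouse 1, but rests on S100a8 and Csf3r alone. The part of these cells in the KO against WT values of the 10 genes was not tested. Nor was that of the Rn45s share and the depth of WT mouse 2.

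Per kilobase of exon, which allows levels of different genes to be compared, Fos was highest in every library. Its level was 740 to 1007 CPM per kb in KO libraries and 544 and 700 CPM per kb in WT. Junb followed at 297 to 406 against 266 and 404 CPM per kb, and was above the other 8 genes in every library. Jun (156 to 181 against 155 and 246 CPM per kb), Atf3 (121 to 153 against 160 and 176 CPM per kb), Dusp1 (92.0 to 121 against 73.5 and 214) and Ier3 (89.3 to 141 against 105 and 42.3) came next by their median over 6 libraries. Fosb (61.8 to 70.5 against 60.8 and 186), Ier2 (35.3 to 54.4 against 35.7 and 88.2), Nr4a1 (16.2 to 32.7 against 12.4 and 37.03) and Egr1 (6.12 to 12.3 against 4.16 and 39.6 CPM per kb) were the lowest 4. From Jun down, the range of each gene over all libraries overlaps that of the next gene in this order, so the order of neighbours is not settled.

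Ratios between genes within a library do not depend on the scaling of that library. The ratios given here were chosen after the values were seen. Of the summed CPM per kb of the 5 AP-1 genes Fos, Fosb, Jun, Junb and Atf3, Fos made up 52.5% and 52.5% in KO clone 1, 56.5% and 56.4% in KO clone 2, and 45.9% and 40.9% in WT. Fosb made up 3.78% to 4.52% in KO libraries and 5.13% and 10.9% in WT, and Jun 9.72% to 11.04% and 13.1% and 14.4%. The groups do not overlap for the shares of Fos, Fosb and Jun. Of all genes set over the same sum, 3.52% were higher in every KO library than in both WT libraries and 22.3% were lower. Fos itself makes up 40.9% to 56.5% of that sum, and genes outside the 5 are no part of it. These 2 shares are thus not a like background for the 5 genes. On the TMM scale 12.9% of all genes were higher, as Fos was. Shares of the same sum are also tied, so a higher share of Fos lowers the others and the separations are not independent. The shares of Junb (21.1% to 23.8% in KO libraries, 22.4% and 23.6% in WT) and Atf3 (7.15% to 10.9% and 13.5% and 10.3%) overlap between groups. The count of Fos over that of Fosb was 6.48 to 8.32 in KO libraries and 4.99 and 2.10 in WT. The count of Jun over that of Junb was 0.753 to 0.923 in KO libraries and 1.03 and 1.07 in WT.

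Against the background of all genes, such ratios are common for Fos and less so for Jun. The ratio of Fos to another of the 10 genes was higher in every KO library than in both WT libraries for 5 of 9 (Fosb, Jun, Junb, Atf3 and Ier2), beside 40.3% of all genes set under Fos in this way. The ratio of Jun to another of the 10 was lower in every KO library for 2 of 9 (Fos and Junb), beside 8.83% of all genes. That of Atf3 to another of the 10 was lower in every KO library for 2 of 9 (Fos and Ier3), beside 24.4%. The pairs of Fos with Jun and of Fos with Atf3 each enter these counts from both sides. The counts are thus not independent. With 4 against 2 libraries an exact permutation test cannot give a p below 0.0667, and these ratios are descriptions.

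**Figure D4:**
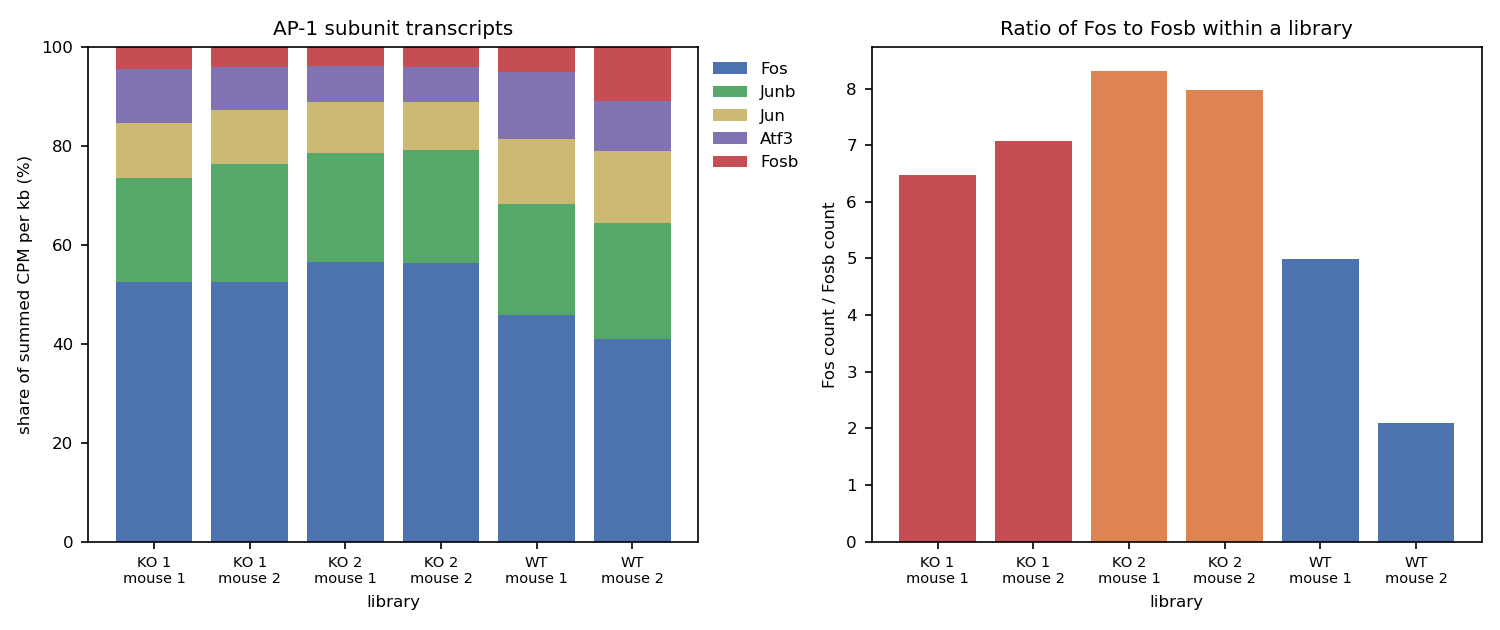
Left, share of each AP-1 gene in the summed CPM per kb of 5 genes (vertical axis, %) by library. Right, count of Fos over count of Fosb (vertical axis, from 0) by library, where the KO libraries are at 6.48 to 8.32 and the WT libraries at 4.99 and 2.10.

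Each KO clone was set against WT in a fit with 3 groups. The contrasts share the WT libraries, so both depend on WT mouse 2. None of the 10 genes passed in either clone, where 0.00643% of all genes passed in each. The unadjusted p was under 0.05 for none of the 10 in clone 1 (7.1% of all genes) and for Fos in clone 2 (11.3% of all genes). DESeq2 called none of the 10 in either contrast, where it called 1.78% of all genes in clone 1 and 3.05% in clone 2. In clone 1, Fos and Ier3 were higher in both libraries than in both WT libraries (17.4% of all genes) and Atf3 was lower (15.1%). In clone 2, Fos was higher in both (26.5% of all genes) and Atf3 was lower in both (25.3%). Fos was higher in clone 2 than in WT by 0.63 ± 0.26 (adjusted p = 0.438), and stood at 0.38 ± 0.26 in clone 1 against WT (adjusted p = 0.724). Atf3 had values of -0.43 ± 0.20 in clone 2 (adjusted p = 0.464) and -0.17 ± 0.20 in clone 1 (adjusted p = 0.769). Ier3 stood at 0.48 ± 0.42 in clone 2 and 0.79 ± 0.43 in clone 1, Egr1 at -1.60 ± 0.91 and -1.24 ± 0.90, and Fosb at -0.90 ± 0.48 and -0.89 ± 0.48. Jun stood at -0.24 ± 0.28 and -0.25 ± 0.28, Junb at 0.20 ± 0.29 and 0.05 ± 0.29, and Ier2 at -0.20 ± 0.43 and -0.52 ± 0.43. Dusp1 stood at -0.32 ± 0.47 and -0.45 ± 0.47 and Nr4a1 at 0.16 ± 0.53 and -0.16 ± 0.53. These values did not pass.

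The clones were then set against each other, which is the test of whether their values differ. Over all genes none passed by edgeR, 3.23% had an unadjusted p under 0.05, and DESeq2 called 0.767%. Among the 10 genes none had an unadjusted p under 0.05, and log2 fold changes of clone 2 over clone 1 ran from -0.36 ± 0.89 for Egr1 to 0.33 ± 0.43 for Ier2. Fos (0.26 ± 0.26) and Ier2 were higher in both clone 2 libraries than in both clone 1 libraries, a placement that 21.8% of all genes had, and Atf3 (-0.26 ± 0.20) was lower, as 22.7% of all genes were. Fosb (0.00 ± 0.48) and Jun (0.01 ± 0.28) had values close to 0. The adjusted p was 1 for each of the 10.

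Leaving out either WT library shows how much the comparison with WT depends on which WT mouse is used. Without WT mouse 2, 9 of the 10 log2 fold changes were positive, with a median of 0.43 against -0.01 over all genes, and 47.8% of all genes were positive. None passed, where 0.174% of all genes did (0.168% higher and 0.00622% lower), and none passed in clone 1 (0.361% of all genes, 0.236% higher and 0.124% lower) or in clone 2 (1.16%, 0.908% higher and 0.249% lower) against WT mouse 1. Between the clones none of the 10 passed either without WT mouse 1 (0.486% of all genes) or without WT mouse 2 (0.541%). In KO against WT mouse 1, unadjusted p-values were under 0.05 for Fos, Egr1, Dusp1 and Nr4a1, 4 of 10 beside 8.58% of all genes, and Atf3 was the single gene with a negative value. Without WT mouse 1, 8 of 10 were negative, with a median of -0.54 against 0.07 over all genes. There Fosb, Jun, Egr1, Ier2 and Dusp1 were lower in KO and Ier3 was higher, 6 of the 10 in all, where 37.5% of all genes passed (21.9% higher and 15.7% lower). In clone 1 against WT mouse 2 the same 6 genes passed, where 34.5% of all genes did (20.8% higher and 13.7% lower). In clone 2 against WT mouse 2 those 6 and Atf3, which was lower, passed, where 40.2% of all genes did (22.8% higher and 17.4% lower). In each of these fits the lone WT library is assumed to vary like the KO libraries.

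Other early response genes had values of both signs and, like the 10 genes, moved with the WT mouse left out. Between the WT mice, the median log2 difference (mouse 2 minus mouse 1) was 0.51 for the 19 transcription factors below. It was 0.55 for the 31 genes of the next paragraph and -0.05 for all genes. WT mouse 2 was highest for 8 of the 19 and 18 of the 31 (35.1% of all genes). WT mouse 1 was lowest for 6 and 13 of them (13.3%). Of 19 other early transcription factors 11 had positive log2 fold changes in KO against WT, with a median of 0.13 against 0.00 over all genes. None passed by edgeR, while DESeq2 called Crem and Klf4 higher (adjusted p = 0.00438 and 0.0395), where it called 3.21% of all genes. The smallest p belonged to Crem, a CREB family factor (1.02 ± 0.23, adjusted p = 0.154), and Klf4, a factor of monocyte differentiation (0.86 ± 0.23, adjusted p = 0.245). Crem stood at 18.4 and 23.8 CPM in KO clone 1, 17.5 and 24.2 CPM in KO clone 2, and 10.9 and 9.63 CPM in WT. All its KO libraries are above both WT libraries, a placement of 7 of the 19, Crem included, and of 12.9% of all genes. Klf4 ran from 146 to 237 CPM in KO libraries and stood at 119.5 and 99.5 CPM in WT. On the negative side stood Bhlhe40 (-0.80 ± 0.28, adjusted p = 0.325) and Fosl2 (-0.38 ± 0.26, adjusted p = 0.468), and neither passed. Bhlhe40 stood at 77.8 to 103 CPM in KO libraries and 99.6 and 208 CPM in WT, and Fosl2 at 162.5 to 210.0 and 173 and 323 CPM. With all libraries, 50.2% of all genes were positive. Without WT mouse 2, 14 of 19 were positive (median 0.19), beside 47.8% of all genes. Without WT mouse 1 it was 8 of 19 (median -0.23), beside 52.8% of all genes.

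Of 31 early response genes that are not transcription factors, 20 had negative values, with a median of -0.12. By edgeR none passed, while DESeq2 called Dusp2 higher (adjusted p = 0.031), where it called 3.21% of all genes. Library totals without scaling factors gave 15 negative values of 31 and a median of 0.07, against 0.14 over all genes. Dusp2, a phosphatase of MAP kinases (0.78 ± 0.20, adjusted p = 0.228), and Btg2, an antiproliferative gene (0.67 ± 0.25, adjusted p = 0.332), had the smallest p among positive values. Plk3, a stress-linked kinase (-0.60 ± 0.17, adjusted p = 0.277), and Nab2, a corepressor that EGR factors induce and that restrains them (-0.78 ± 0.23, adjusted p = 0.283), did among negative values. Nab2 stood at 46.7 to 52.4 CPM in KO libraries and at 60.2 and 109 CPM in WT. Like Egr1 it was highest in WT mouse 2, but unlike Egr1 it was lower in every KO library than in WT mouse 1. Every KO library lay below both WT libraries for 6 of the 31 (10.7% of all genes) and above both for 7 (12.9%). Without WT mouse 2, 19 of 31 were positive (median 0.19), beside 47.8% of all genes. Without WT mouse 1 it was 8 of 31 (median -0.36), beside 52.8% of all genes.

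Of 26 upstream factors and kinases, 16 were positive, with a median of 0.03, and none passed by edgeR or DESeq2. With the filter of 5 CPM in 2 libraries 12 were positive (median -0.02). Without WT mouse 2 it was 17 of 26 (median 0.08), beside 47.8% of all genes. Without WT mouse 1 it was 12 (median -0.04), beside 52.8% of all genes. Elk3, a ternary complex factor (0.41 ± 0.17, adjusted p = 0.355), and Mapk9, which codes for JNK2 (0.65 ± 0.28, adjusted p = 0.366), had the smallest p among positive values, and Mapk7 (-0.50 ± 0.22) and Mapk3 (-0.45 ± 0.22), which code for ERK5 and ERK1, among negative ones.

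Heat shock chaperones, which dissociation can also induce, were placed in several ways. WT mouse 2 was the highest library for 2 of 12 (35.1% of all genes) and the lowest for 4 (38.7%). WT mouse 1 was the lowest for none (13.3%). Every KO library lay below both WT libraries for 3 of the 12 (10.7% of all genes) and above both for none (12.9%). The part of handling in these levels was not tested. Of the 12 chaperones 6 stood above 0 (median 0.02) in KO against WT. None passed there by edgeR, while DESeq2 called Hspa1b lower (adjusted p = 0.0253), where it called 3.21% of all genes. Without WT mouse 2, 3 of 12 were positive (median -0.12), beside 47.8% of all genes. Without WT mouse 1 it was 8 of 12 (median 0.26), beside 52.8% of all genes. The near-copies Hspa1b (-1.82 ± 0.54, adjusted p = 0.282) and Hspa1a (-1.65 ± 0.57, adjusted p = 0.32), inducible HSP70 genes among which reads may be split uncertainly, had the smallest p. Hspa1b stood at 203 and 262 CPM in KO clone 1, 69.7 and 72.7 CPM in KO clone 2, and 633 and 435 CPM in WT. It was thus highest in WT mouse 1, as were Hspa1a (662 CPM), Hspb1 (9.80 CPM) and Dnajb1 (98.3 CPM). Hspa8, Hspa5, Hspd1, Hspe1 and Hsp90aa1 were highest in KO clone 1 mouse 2. Hspa8 (0.28 ± 0.21) and Hspe1 (0.47 ± 0.36) had the smallest p among positive values and did not pass. In clone 2 against clone 1, DESeq2 called 2 of the 12 lower, where it called 0.767% of all genes, and edgeR called none.

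Rapidly induced inflammatory genes were mostly positive, with 11 of 14 above 0, beside 50.2% of all genes, and a median of 0.48. By edgeR none passed, while DESeq2 called Ptgs2 higher (adjusted p = 0.00206), where it called 3.21% of all genes. Ptgs2, the inducible cyclooxygenase (1.01 ± 0.21, adjusted p = 0.141), stood at 150 to 231 CPM in KO libraries and 95.8 and 100.3 CPM in WT, and Il10 (1.03 ± 0.36, adjusted p = 0.32) at 9.28 to 12.01 and 7.23 and 2.96 CPM. Cxcl2 (-0.23 ± 0.30) and Il1a (-0.40 ± 0.55) were negative and did not pass. WT mouse 2 was the lowest of the 6 libraries for 8 of the 14 (38.7% of all genes). It was the highest for 7 of the 10 immediate early genes (35.1% of all genes). Without WT mouse 2, 10 of the 14 were positive (median 0.37), beside 47.8% of all genes. Without WT mouse 1 it was 13 (median 0.73), beside 52.8% of all genes.

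**Figure D5:**
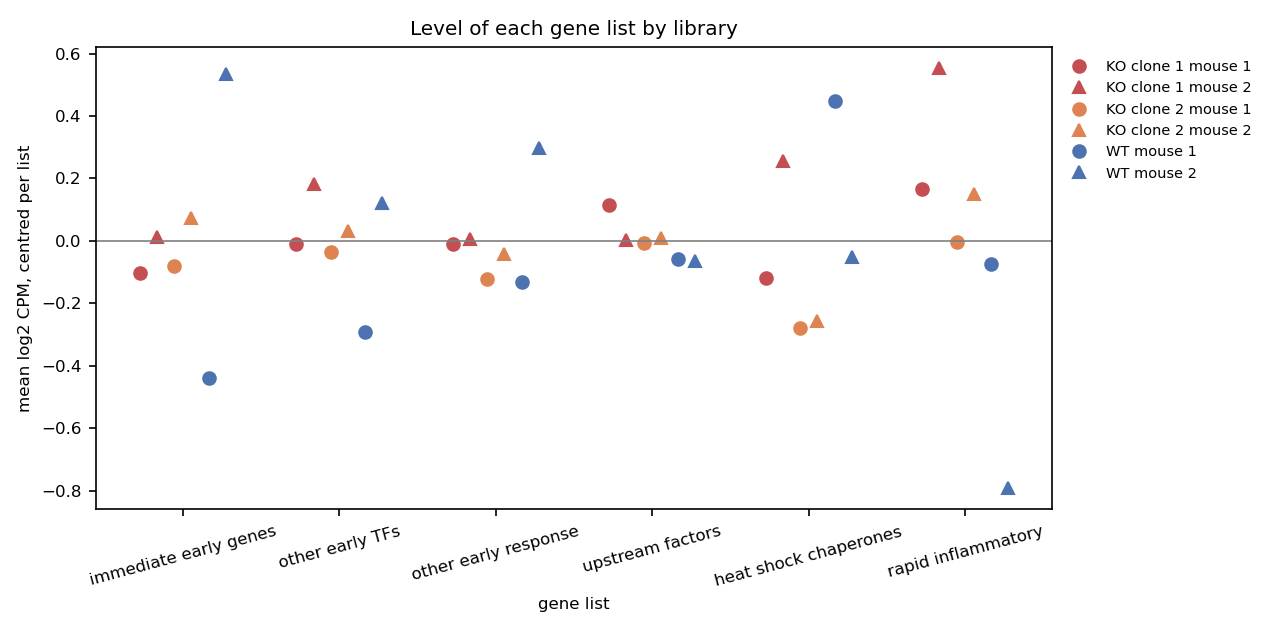
Mean log2 CPM of each gene list (vertical axis, centred on the list's mean over 6 libraries) for every library of KO clone 1, KO clone 2 and WT. WT mouse 2 is highest and WT mouse 1 lowest for immediate early genes and for other early response genes that are not transcription factors. For other early transcription factors WT mouse 1 is lowest and KO clone 1 mouse 2 highest. WT mouse 1 is highest for heat shock chaperones, and WT mouse 2 is lowest for rapidly induced inflammatory genes.

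The mean profile of the 10 genes over the 6 libraries, centred on 0, was -0.10 and 0.01 in KO clone 1, -0.08 and 0.07 in KO clone 2 and -0.44 and 0.54 in WT, in log2 CPM. The 5 other genes nearest to it, among genes with a mean of at least 5 CPM, were Psme1 (a proteasome activator subunit), Copz1 (a coatomer subunit), Ogfr (a receptor of opioid growth factor), Adprh (an ADP-ribosylarginine hydrolase) and Nfkb2 (an NF-kB subunit), with a root mean square difference of 0.056 to 0.073 over 6 libraries. Of the 10 genes themselves, Jun was nearest to their mean at 0.117, and Egr1 (0.805) and Ier3 (0.788) were farthest. This likeness rests mainly on the gap between the WT mice.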

How the data were processed

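RNA of macrophages sorted from tumours was sequenced after ribosomal RNA depletion with a TruSeq kit, per the labels' protocols, as 1 library per mouse. The values in the deposited table are estimated counts by gene symbol, and all are whole numbers. The submitters' processing notes name Salmon 0.7.2 and mm10. Transcript set, filters and strand setting: not given in the sources used here, and no label says how tumours were dissociated.

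The test was the quasi-likelihood F test of edgeR 4.0.16 (R 4.3.3; filterByExpr with a minimum count of 10, TMM factors) on 15560 genes, with Benjamini-Hochberg adjustment and a threshold of 0.05. KO against WT was fitted with 2 genotype levels, and the clones with 3 groups. The fit with 2 levels takes the 4 KO mice as separate replicates, though their tumours came from 2 clones. A difference between the clones counts there as spread among KO mice. An SE is the absolute log2 fold change over the square root of F. Alternatives were RLE factors, no factors, other filters, DESeq2 1.42.0, no Rn45s, the mouse number as a block, and each library left out. Positions and exon lengths came from GENCODE M21 (GRCm38). Genes named beside the 10 were, per list, the 2 in each direction with the smallest p, plus the 5 nearest in profile. Single marker genes and ratios were picked once their values were known. The members and lists were chosen with earlier results of these data known.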

Additional observations from a re-analysis of the deposited data

How the results depend on the processing

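Of the 40 log2 fold changes of the 10 genes in 4 comparisons, 11 kept their sign under every alternative run. In KO against WT these were Fos, Atf3 and Ier3. Library totals without scaling factors moved the median of all genes in KO against WT to 0.14, against 0.00 with TMM factors, and the median of the 10 genes to -0.04. There Atf3 (0.0025) and Nr4a1 (0.17) turned sign in clone 1 against WT, Ier2 (0.0826) in clone 2 against WT and Jun (-0.0083) between clones. Fosb turned between clones with RLE factors (0.0187), with DESeq2 (0.0187) and without both Rn45s and scaling factors (5e-04), an alternative chosen after seeing the data. With the filter of 5 CPM in 2 libraries, Nr4a1 turned in KO against WT (-0.0529) and Jun between clones (-0.0016). The cause was not tested.

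Ranges over leaving out each library, where the sign turned, were as follows. KO against WT: Fosb -1.47 to 0.099, Jun -0.53 to 0.10, Junb -0.13 to 0.44, Egr1 -2.25 to 0.96, Ier2 -0.85 to 0.42, Dusp1 -0.94 to 0.56, Nr4a1 -0.56 to 0.97. Clone 1 against WT: Fosb -1.47 to 0.0984, Jun -0.53 to 0.0943, Junb -0.20 to 0.36, Egr1 -2.09 to 1.12, Ier2 -1.02 to 0.24, Dusp1 -1.01 to 0.49, Nr4a1 -0.73 to 0.81. Clone 2 against WT: Fosb -1.48 to 0.0995, Jun -0.52 to 0.11, Junb -0.0598 to 0.51, Egr1 -2.44 to 0.77, Ier2 -0.70 to 0.58, Ier3 -0.0527 to 1.29, Dusp1 -0.88 to 0.63, Nr4a1 -0.41 to 1.13. Clone 2 against clone 1: Fosb -0.10 to 0.0968, Jun -0.0908 to 0.13, Junb -0.0502 to 0.37, Egr1 -0.77 to 0.24, Dusp1 -0.0346 to 0.33, Nr4a1 -0.0294 to 0.77. The number of the 10 genes called over leaving out each library was 0 to 6 in KO against WT, 0 to 6 in clone 1 and 0 to 7 in clone 2 against WT, and was above 0 only without WT mouse 1. There 37.5%, 34.5% and 40.2% of all genes were called.

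Calls over all genes were 21 in KO against WT, 1 in each clone against WT and 0 between clones. In KO against WT they were 8 without scaling factors, 111 without a filter, 499 with DESeq2, 1 with 3 groups, 12 without Rn45s and scaling factors, and 1 to 6020 over leaving out each library. In clone 1 against WT they were 123 without a filter, 0 with the filter of 5 CPM, 271 with DESeq2 and 0 to 5535 over leaving out each library. In clone 2 against WT they were 9 with RLE factors, 229 without a filter, 0 with the filter of 5 CPM, 465 with DESeq2, 8 without Rn45s and 0 to 6445 over leaving out each library. Between clones they were 53 without a filter, 117 with DESeq2 and 0 to 87 over leaving out each library.

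With the mouse number as a replicate block, calls over all genes were 15 in KO against WT and 0 in each clone against WT. It changed no call and no sign of the 10 genes. The mouse number is only a number in the labels. The difference between mice correlated across genes between clone 1 and clone 2 (r = 0.197), clone 1 and WT (-0.135) and clone 2 and WT (0.05), so the numbers were not taken to pair the mice. The 10 genes had at least 696 counts in every library. The number of libraries, 2 of them WT, limits every comparison.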
